A study of Mus musculus with 92 samples.

Results

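The glycolytic enzymes examined here are 10 genes, Hk2, Gpi1, Pfkl, Aldoa, Tpi1, Gapdh, Pgk1, Pgam1, Eno1 and Ldha, taken by name from a table of 23956 gene symbols, in which all 10 have a row. The list was chosen by name and not by its values, with earlier results of these data known. The table covers 92 bone marrow cells, each a separate sample, from C57BL/6 mice with the genotype Gfi1-R412X/R412X. Gfi1 is a transcriptional repressor with zinc fingers that granulocyte formation needs, and R412X is a premature stop in it. There were 45 cells from a gate named GMP and 47 from a gate named CD11b+ GMP-P, after enrichment for CD117, and the authors gave each cell 1 of 9 state names.

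Both gates carry the homozygous mutation and there were 0 wild type cells, so nothing below measures an effect of the mutation. Neither the animals nor their number and age are stated in the labels. Each gate carries its own date code, so an effect of the gate, the animal, the run and the day cannot be told apart. Each gate was therefore treated as 1 sample, cells were not counted as replicates, no p-value was computed, and ± SD is the spread of cells.

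Glycolysis turns glucose into pyruvate in the cytosol, and lactate dehydrogenase then turns pyruvate into lactate while restoring the NAD+ that the pathway uses. Mature neutrophils hold few active mitochondria and are known for their reliance on this route. Hexokinase 2 (Hk2) traps glucose as glucose 6-phosphate, glucose 6-phosphate isomerase (Gpi1) turns it into fructose 6-phosphate, and the liver-type subunit of phosphofructokinase (Pfkl) carries out the committed step. Aldolase A (Aldoa) splits the sugar and triosephosphate isomerase (Tpi1) interconverts the fragments. Glyceraldehyde-3-phosphate dehydrogenase (Gapdh), phosphoglycerate kinase 1 (Pgk1), phosphoglycerate mutase 1 (Pgam1) and alpha-enolase (Eno1) form the payoff segment. Ldha encodes the A subunit of lactate dehydrogenase.

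Promoter windows are shown because factors named in textbooks for this pathway bind short motifs. The windows, of 250 bases before to 50 bases after a start, are from RefSeq on GRCm38.p6, and all 10 members matched, with 15 windows in all. Capitals mark ACGTG on either strand (written CACGT on the other), the core that hypoxia-inducible factors bind. CACGTG, the E-box bound by Myc and related proteins, contains this core. Ldha holds the most matches, Pgk1 holds matches on both strands, Tpi1 had the widest difference between the early states, and Gpi1 and Gapdh were the members above 0 in every cell.
Ldha chr7:46845554-46845853 (plus strand): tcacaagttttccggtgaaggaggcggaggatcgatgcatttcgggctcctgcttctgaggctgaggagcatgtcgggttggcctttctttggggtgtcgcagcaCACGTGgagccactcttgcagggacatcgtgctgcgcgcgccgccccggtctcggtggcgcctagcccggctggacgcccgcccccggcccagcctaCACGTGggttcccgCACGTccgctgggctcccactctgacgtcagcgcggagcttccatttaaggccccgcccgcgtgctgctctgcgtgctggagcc
Pgk1 chrX:106186850-106187149 (plus strand): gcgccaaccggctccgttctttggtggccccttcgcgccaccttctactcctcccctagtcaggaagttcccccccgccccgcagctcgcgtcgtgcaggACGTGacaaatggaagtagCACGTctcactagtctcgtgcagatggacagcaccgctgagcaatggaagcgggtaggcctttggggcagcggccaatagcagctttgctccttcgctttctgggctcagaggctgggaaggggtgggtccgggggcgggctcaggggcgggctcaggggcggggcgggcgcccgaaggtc
Tpi1 chr6:124814109-124814408 (minus strand): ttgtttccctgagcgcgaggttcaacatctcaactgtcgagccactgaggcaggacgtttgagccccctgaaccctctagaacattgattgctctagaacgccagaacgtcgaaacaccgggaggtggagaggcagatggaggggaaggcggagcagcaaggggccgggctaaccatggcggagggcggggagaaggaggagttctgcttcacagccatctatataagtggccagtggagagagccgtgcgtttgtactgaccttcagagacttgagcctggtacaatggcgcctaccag
Gpi1 chr7:34230287-34230586 (minus strand): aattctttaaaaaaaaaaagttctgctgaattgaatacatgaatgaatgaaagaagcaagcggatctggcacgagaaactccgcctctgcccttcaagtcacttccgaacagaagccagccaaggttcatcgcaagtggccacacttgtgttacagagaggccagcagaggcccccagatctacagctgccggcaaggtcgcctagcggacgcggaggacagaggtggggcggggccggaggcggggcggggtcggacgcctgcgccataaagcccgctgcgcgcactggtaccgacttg
Gapdh chr6:125165724-125166023 (minus strand): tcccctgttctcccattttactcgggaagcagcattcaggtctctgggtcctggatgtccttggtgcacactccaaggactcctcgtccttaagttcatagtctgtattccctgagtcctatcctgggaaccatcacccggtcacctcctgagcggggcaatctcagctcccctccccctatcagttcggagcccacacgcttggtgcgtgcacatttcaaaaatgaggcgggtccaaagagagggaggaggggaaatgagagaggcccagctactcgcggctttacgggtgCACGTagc

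ACGTG stood in a window of 6 of the 10 members, namely Aldoa, Gapdh, Hk2, Ldha, Pgam1 and Pgk1, and in 21.8% of the 27025 genes with a window. The Ldha window above held 5 matches, of which 4 were the paired strands of 2 copies of the E-box. That hexamer was in a window of 1 member, Ldha, and of 8.09% of genes. GGGCGG, the box bound by Sp1-type factors, was searched on both strands too and stood in a window of 9 members, all but Gapdh, and of 38.2% of genes. The printed Gpi1 and Tpi1 windows hold no ACGTG. G and C made up a median of 52.7% of the bases over all windows. The members' windows stood at 56.7% to 69%, apart from 1 Aldoa window at 52.7%. The members had 15 windows for 10 genes, against 32851 for 27025 genes. Neither GC content nor the number of windows was matched, so these counts do not set the members apart. A match is a description of letters and not evidence of binding.

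Levels are in TPM, a measure of transcript abundance, which is per length and sums to the same total in every cell. A gene can thus be lower in TPM because its own transcript is scarcer or because others take more of the total, and these cannot be told apart. The median number of genes above 0 was 5611 in GMP cells (2775 to 6612) and 4143 in CD11b+ GMP-P cells (1993 to 5743). The read depth of a cell is unknown. Monocyte markers summed to a median of 645 TPM in GMP (0.49 to 4745, 11 of 12 genes detected) and 4.67 TPM in CD11b+ GMP-P (0 to 1064, 9 of 12 detected, with Fcgr1 and S100a4 among those at 0). Erythroid, megakaryocyte and eosinophil markers each had a median sum of 0 TPM in both gates. The 7 basophil and mast cell markers summed to 660 TPM in GMP and 380 TPM in CD11b+ GMP-P by the median. The 7 T and NK cell markers summed to 3409 and 2721 TPM, with Cd3e, Cd3g, Klrb1c and Gzma at 0 in both gates. Nkg7 was the only one of them detected in cMoP and Myelo-1. There the sums were 130 to 1718 and 2365 to 2971 TPM, so a high sum can come from Nkg7 alone. The granule lists are at the levels of the granulocyte lineage, as described with the shares below.

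All 10 enzymes were detected, and Gapdh, Aldoa and Eno1 led in the GMP gate. Gapdh and Gpi1 were above 0 in all 92 cells. In the 45 GMP cells Gapdh had a median of 4014 TPM (1358 to 7932), Aldoa 1716 (0 to 4316) and Eno1 1597 (0 to 4433). Phosphofructokinase and hexokinase were the scarce members, with GMP medians of 16.3 TPM for Pfkl and 46.2 for Hk2. Pfkl was above 0 in 35 of 45 GMP cells (77.8%, exact Clopper-Pearson 95% interval 62.9 to 88.8) and in 14 of 47 CD11b+ GMP-P cells (29.8%, 17.3 to 44.9), intervals that cover counting error only.

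**Figure D1:**
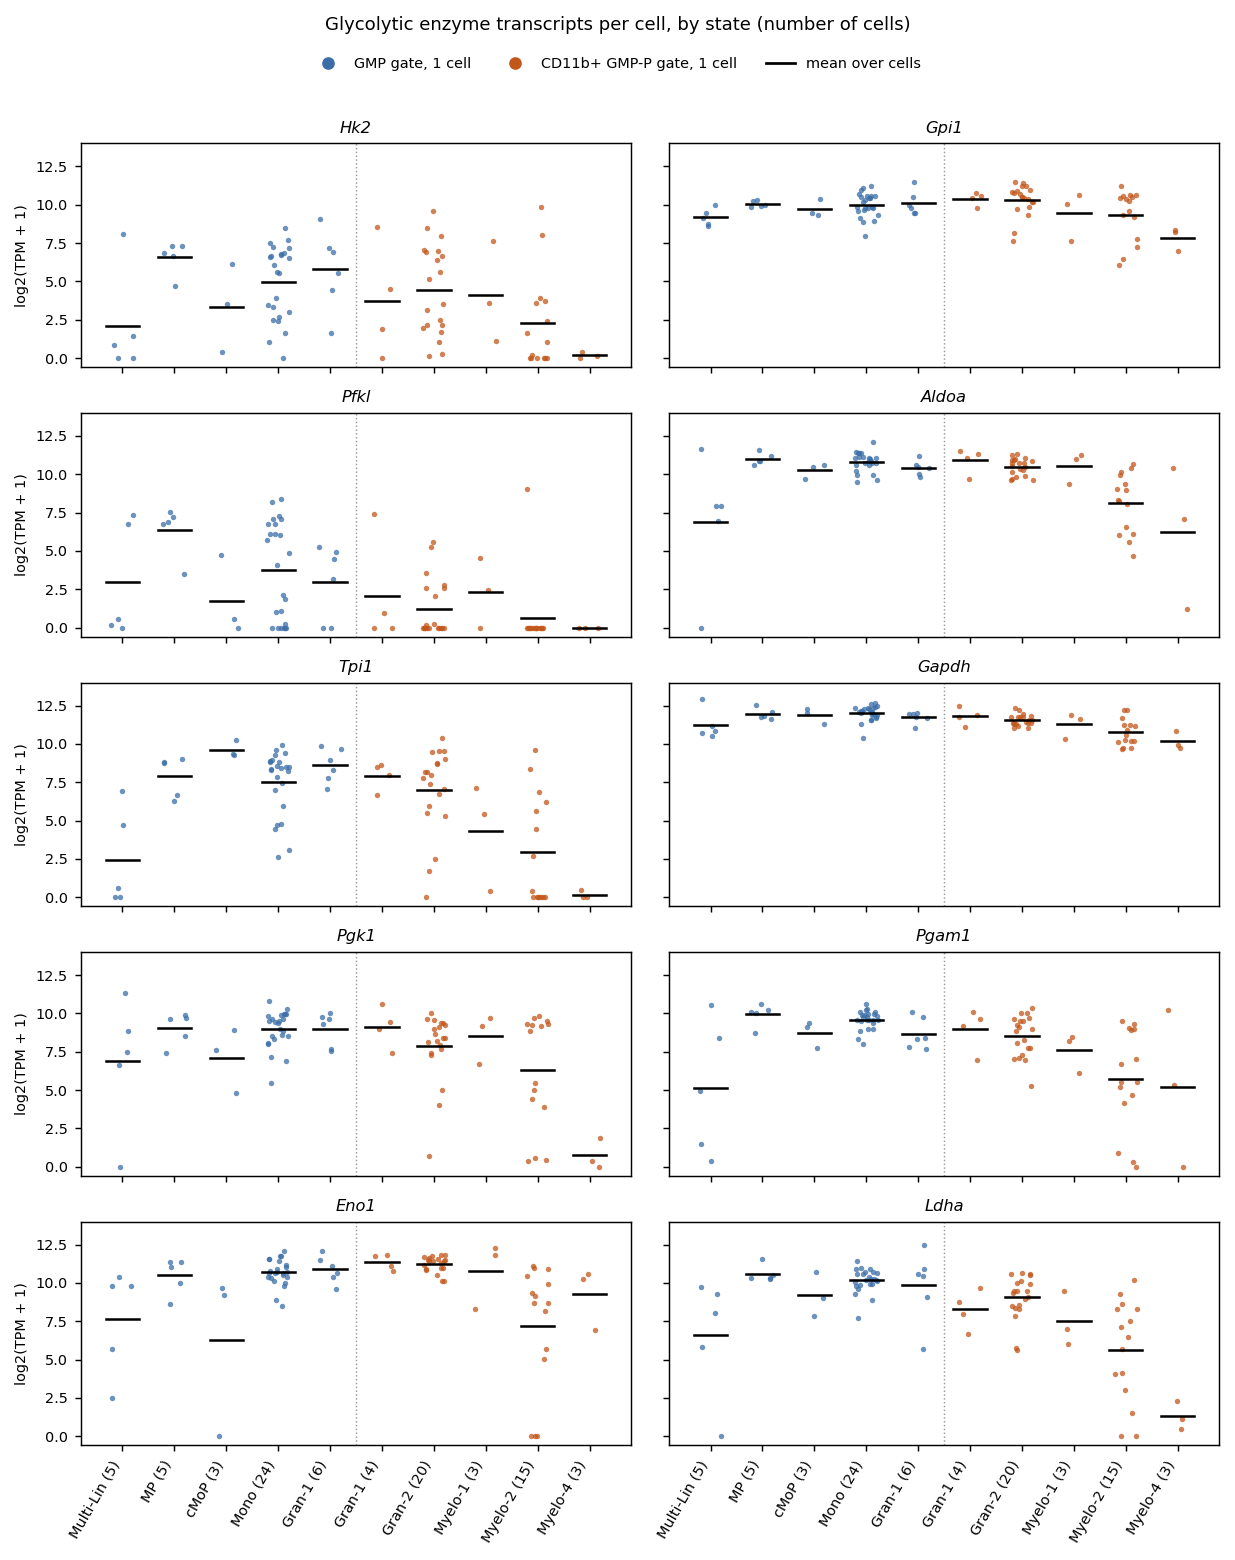
Each point is 1 cell, the y axis is log2(TPM + 1) and the x axis is the state with its number of cells in parentheses; black bars are means over cells, blue is the GMP gate and orange the CD11b+ GMP-P gate, and 3 groups of 1 or 2 cells are not drawn. Gapdh and Gpi1 form narrow bands in most states, whereas Tpi1, Ldha and Pgk1 spread to under 1 TPM in Myelo-2 and Myelo-4.

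Within MP, the state in which every enzyme was above 10 TPM in all 5 cells, the order of mean log2(TPM + 1) was Gapdh 11.94 ± 0.36, Aldoa 11.02 ± 0.38, Ldha 10.61 ± 0.55, Eno1 10.49 ± 1.18, Gpi1 10.05 ± 0.21, Pgam1 9.94 ± 0.71, Pgk1 9.04 ± 1.05, Tpi1 7.90 ± 1.32, Hk2 6.57 ± 1.07 and Pfkl 6.39 ± 1.66 (SD over 5 cells). The gap exceeded the wider of the neighbouring SDs only between Gapdh and Aldoa and between Tpi1 and Hk2. The other neighbours in that order do not differ beyond the spread of cells. In the 20 CD11b+ GMP-P Gran-2 cells Gapdh (11.55 ± 0.35) and Eno1 (11.23 ± 0.52) led, and Pfkl (1.24 ± 1.87) was again last.

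By the median of the 10 enzymes on the log2(TPM + 1) scale, MP minus Multi-Lin was the widest of the 5 comparisons, although Eno1, Gpi1, Gapdh and Pfkl each differed more in another one. A Multi-Lin cell had a median of 8 of the 10 enzymes above 0 (7 to 10) and 7 above 10 TPM (5 to 8), against 10 of 10 above 10 TPM in each MP cell. MP minus Multi-Lin, in the GMP gate with 5 cells a side, had a median of 3.71 over the 10 enzymes on the log2(TPM + 1) scale, against 1.03 over the 7797 genes compared. This scale adds 1 TPM before the logarithm and understates the change of low genes. At least 2-fold higher were 8 of 10 enzymes, against 50.6% of all genes, and 0 were at least 2-fold lower, against 10.9%.

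In the splitting segment, Tpi1 was at 0, 0, 0.48, 24.6 and 122 TPM in the 5 Multi-Lin cells and at 75.7, 101, 428, 449 and 510 TPM in the 5 MP cells. The sets overlap through 1 Multi-Lin cell, and the difference of means was 5.46 (7.90 ± 1.32 against 2.44 ± 3.19). Aldoa stood at 0, 126, 239, 241 and 3265 TPM in Multi-Lin and at 1553 to 3021 TPM in MP, a difference of 4.12. The highest Multi-Lin cell for Aldoa exceeded every MP cell.

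In the payoff segment, Pgam1 ran from 0.32 to 1480 TPM in Multi-Lin, with 2 of 5 cells under 10 TPM, and stood at 428, 1043, 1071, 1208 and 1570 TPM in MP, a difference of 4.79. Eno1 (2.85) and Pgk1 (2.17) differed less, and their Multi-Lin cells ran from 4.55 to 1322 and from 0 to 2556 TPM. Gapdh differed by only 0.70, with 1460, 1670, 1859, 2294 and 7932 TPM in Multi-Lin and 3087, 3390, 3599, 4255 and 5815 TPM in MP. The Gapdh cells of the 2 states overlapped, as the Multi-Lin cell at 7932 TPM exceeded every MP cell.

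Ldha, at the end of the route, stood at 0, 56.1, 267, 621 and 863 TPM in Multi-Lin and at 1238, 1277, 1292, 1492 and 3034 TPM in MP. Every MP cell was above every Multi-Lin cell, which held for 1 of the 10 members and for 2.65% of all genes. The reverse held for 0 members and 0.141% of genes. The difference of means was 4.02 (10.61 ± 0.55 against 6.59 ± 3.98). Ldhb, which encodes the B subunit of lactate dehydrogenase, was at 0 in all 5 Multi-Lin cells and at 14.2 to 297 TPM in MP.

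Among the 1849 genes detected in at least 75% of all cells, a filter added after the data were seen, 7 of 9 enzymes were at least 2-fold higher in MP, against 54.3% of genes, and 0 lower, against 7.25%.

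At the entry, Hk2 stood at 0, 0, 0.84, 1.66 and 266 TPM in Multi-Lin and at 25.5, 101, 113, 157 and 157 TPM in MP. A single Multi-Lin cell thus exceeded all MP cells, and the mean difference was 4.498. Hk3, a further hexokinase gene that myeloid cells express, was listed at 0 in all 5 Multi-Lin cells and at 8.65, 55.8, 77.4, 116 and 428 TPM in MP. Pfkl differed by 3.41 and Gpi1 by 0.85, the latter with 395 to 1030 TPM in Multi-Lin and 921 to 1269 TPM in MP.

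Genes detected moved with this comparison, at a median of 3634 in Multi-Lin (3069 to 4688) and 5747 in MP (4985 to 6244). The 7 basophil and mast cell markers moved too, with sums of up to 13379 TPM and a median of 5603 TPM in Multi-Lin (all 7 detected) and 662 to 1363 TPM with a median of 749 TPM in MP (4 detected, with Ms4a2, Fcer1a and Prss34 at 0). Other lists differed as well. Primary granule genes summed to 7341 to 26023 TPM in Multi-Lin and 60798.5 to 76306.5 TPM in MP. T and NK cell markers summed to 1296 to 3058 and 3210 to 7418 TPM. Median sums were 120 and 894 TPM for the secondary and late granule list. For stem and multipotent progenitor markers they were 990 and 482 TPM. The part of genes detected and of these lists in the result was not tested. Taken as the logarithm of the mean TPM, the median of the enzymes lay 0.78 above that of all genes in place of 2.68, and Pgk1 was 0.08 lower in MP. With each cell left out in turn the distance lay between 2.25, without Multi-Lin cell 17, and 3.48, without Multi-Lin cell 35.

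**Figure D2:**
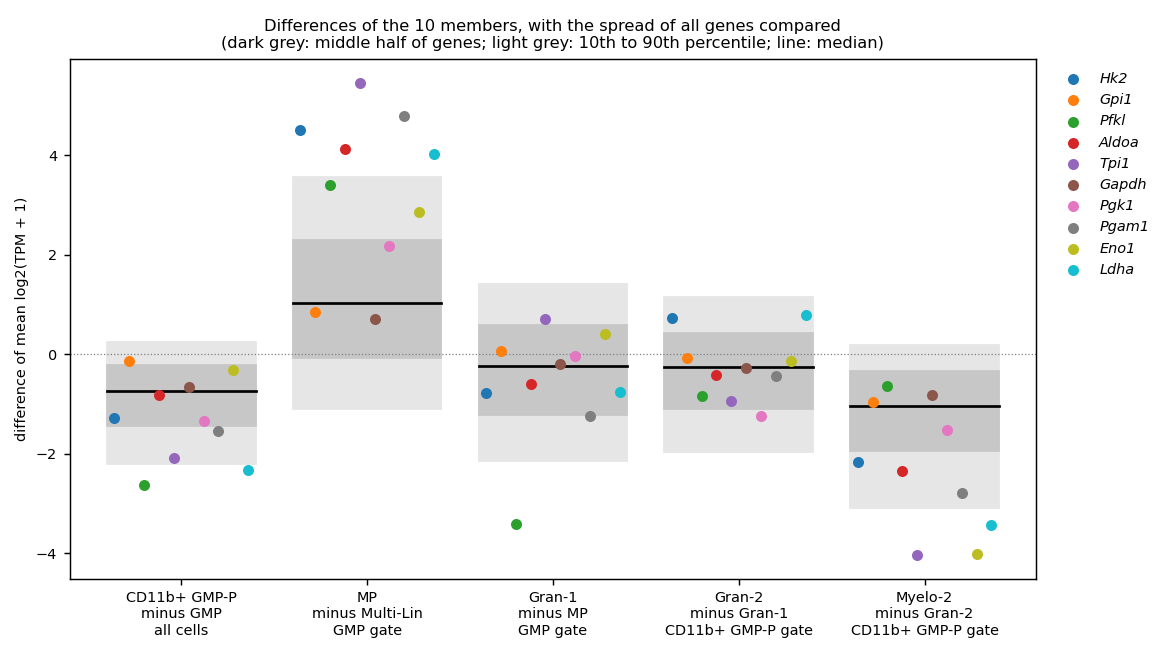
Points are the 10 enzymes and the y axis is the difference of mean log2(TPM + 1) in each of 5 comparisons; the grey boxes span all genes compared, and the black lines are their medians. For MP minus Multi-Lin 8 points stand above the line, at 2.17 to 5.46, while the points of the 2 middle steps surround it.

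From MP to Gran-1 in the GMP gate the enzymes stood close to all other genes, apart from the committed step. The median difference was -0.40 over the enzymes and -0.25 over 8358 genes. At least 2-fold lower were 2 enzymes, against 30.4% of genes, and 0 were at least 2-fold higher, against 16%. Pfkl stood at 10.1, 106, 119, 149 and 189 TPM in MP and at 0 to 38.01 TPM, with a median of 14.6, in the 6 Gran-1 cells, a difference of -3.41. The low MP cell lies inside the Gran-1 range and the other 4 lie above it. Pgam1 differed by -1.25 (8.69 ± 1.009 against 9.94 ± 0.71), with overlapping cells, and Tpi1 by 0.70. Under the 75% filter 1 of 9 enzymes was lower, against 28% of genes, and 0 higher, against 11.8%. For 0 enzymes did the cells of the 2 states not overlap, against 0.0359% of genes with every Gran-1 cell higher and 0.168% with every one lower. The enzymes' distance from the median of all genes was -0.16, and it turned to 0.12 with the logarithm of the mean TPM and to 0.04 with a pseudocount of 0.1 TPM, so no direction holds for the group.

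From Gran-1 to Gran-2 in the CD11b+ GMP-P gate the enzymes likewise lay near the other genes, at a median of -0.34 against -0.25 over 8999 genes. At least 2-fold lower was 1 enzyme, Pgk1, against 27.8% of genes, and 0 were at least 2-fold higher, against 12.2%. Pgk1 stood at 168, 509, 680 and 1578 TPM in the 4 Gran-1 cells and at 0.66 to 1042 TPM, with a median of 334, in the 20 Gran-2 cells, a difference of -1.25 between overlapping sets. Ldha differed by 0.78 the other way, at 102, 255, 434 and 803 TPM in Gran-1 and 48.3 to 1591 TPM (median 671) in Gran-2. Under the 75% filter 1 of 9 enzymes was lower, against 29.5% of genes, and 0 higher, against 11%. The cells overlapped for every enzyme, and 0.0111% of genes had every Gran-2 cell lower and 0% every one higher. Without Gran-1 cell 79, 5 enzymes were at least 2-fold apart and the group's distance from all genes was 0.11 in place of -0.09. Without Gran-1 cell 82 or cell 85 the count was 2, so this step has no stable direction either. These leave-out counts have no share of all genes beside them and do not set the enzymes apart from other genes.

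The step from Gran-2 to Myelo-2 in the CD11b+ GMP-P gate held enzymes that differed little beside enzymes that were far lower. At least 2-fold lower in the 15 Myelo-2 cells were 7 enzymes, against 51.2% of the 7334 genes compared, and 0 were at least 2-fold higher, against 2.62%. The median difference was -2.26 over the enzymes and -1.04 over all genes. Among the genes detected in at least 75% of all cells the median was -1.89, and the 9 enzymes in that set had a median of -2.35. There 7 enzymes were at least 2-fold lower, against 71.1% of genes, and 0 higher, against 2.27%. The enzymes as a group were therefore closer to other widely detected genes than to all genes compared.

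Tpi1 and Eno1 had the widest differences. Tpi1 ran from 0 to 1358 TPM with a median of 238 in the 20 Gran-2 cells and from 0 to 774 TPM with a median of 0.31 in Myelo-2, a difference of -4.04 (2.94 ± 3.55 against 6.98 ± 2.80). It was above 0 in 19 of 20 Gran-2 cells (95%, interval 75.1 to 99.9) and in 8 of 15 Myelo-2 cells (53.3%, 26.6 to 78.7). Eno1 ran from 1125 to 3678 TPM (median 2722) in Gran-2 and from 0 to 2189 TPM (median 413) in Myelo-2, a difference of -4.03 (7.21 ± 4.12 against 11.23 ± 0.52). Its Myelo-2 cells included 3 at 0, and the next lowest stood at 31.5 TPM.

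The Eno1 zeros need the copy of this gene beside them. Eno1b, a near-identical gene with 99.5% identity over 1736 aligned bases, was chosen for inspection after the values were seen, and the counting can divide reads between them. It was above 10 TPM in 7 of 15 Myelo-2 cells. In the 3 Myelo-2 cells at 0 for Eno1, Eno1b was at 3.89, 26.31 and 26.45 TPM. These cells thus stayed far below the lowest Gran-2 value of Eno1, 1125 TPM, with the copy added. The sum of Eno1 and Eno1b averaged 8.29 ± 2.68 in Myelo-2 and 11.25 ± 0.52 in Gran-2, and 1 Myelo-2 cell had a sum under 10 TPM. The Eno1 level of 7.21 in Myelo-2 is therefore uncertain toward the low side. The same holds for a cMoP cell listed at 0 for Eno1 and 249 TPM for Eno1b.

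Ldha ran from 48.3 to 1591 TPM (median 671) in Gran-2 and from 0 to 1165 TPM (median 89.7) in Myelo-2, a difference of -3.43. Pgam1 differed by -2.79, with medians of 477 and 46.02 TPM, and Aldoa by -2.35, with medians of 1585 and 319 TPM. Every Gran-2 cell held at least 782 TPM of Aldoa, whereas Myelo-2 cells began at 24.3 TPM. Hk2 differed by -2.17 on medians of 22.2 and 1.06 TPM.

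Pgk1, like several of the other enzymes, had a gap in its Myelo-2 values. Of 15 cells, 7 were at 0.28 to 42.3 TPM and 8 at 468 to 923 TPM, with none between. In Gran-2 the median was 334 TPM. The mean difference was -1.52, but by the median over cells Pgk1 was 0.48 higher in Myelo-2.

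Gapdh, Gpi1 and Pfkl differed by less than 2-fold. Gapdh ran from 2056 to 5111 TPM (median 2908) in Gran-2 and from 828 to 4792 TPM (median 1524) in Myelo-2, a difference of -0.81. Gpi1 had medians of 1443 and 1222 TPM, a difference of -0.96, with 4 Myelo-2 cells at or under 216 TPM and 11 at or above 596 TPM. Pfkl was already near 0 in Gran-2, above 0 in 9 of 20 cells, and was above 0 in 1 of 15 Myelo-2 cells, which held 517 TPM.

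Cells of Gran-2 and Myelo-2 overlapped for all 10 enzymes, and 0.109% of genes had every Myelo-2 cell lower and 0.0545% every one higher. Genes detected were at a median of 4595 in Gran-2 (2629 to 5743) and 2936 in Myelo-2 (1993 to 3257), and 2 pairs of cells could be matched on it, too few for a comparison. Marker lists moved with this step as well. From Gran-2 to Myelo-2 the median sum went from 71622 to 465 TPM for the 9 primary granule genes (8 detected in each state, Bpi at 0). It went from 686 to 6.46 TPM for basophil and mast cell markers (6 and 2 of 7 detected). For T and NK cell markers it went from 4577 to 12.2 TPM, with only Cd3d, Lck and Nkg7 detected in each state. Nkg7 alone made up that sum in Myelo-1. The part of these marker lists in the result, and that of genes detected, was not tested. By the logarithm of the mean TPM the enzymes lay 0.21 above the median of all genes, with 5 lower and 1 higher at 2-fold. That count has no share of all genes beside it and does not set the enzymes apart. With cells centred on the 808 genes detected in at least 90% of all cells, the median of all genes shifted from -1.04 to 1.55, and 2 enzymes were lower and 4 higher at 2-fold, against 6.11% and 66.7% of genes. Centring moves every gene alike, so the distance of the enzymes from the median of all genes cannot change under it. Tpi1, Eno1, Ldha and Pgam1 were lower in Myelo-2 under both scalings, at -1.45, -1.44, -0.84 and -0.21 with centring. The Eno1 value leaves out Eno1b, and their sum was not centred.

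Myelo-1 and Myelo-4 held few cells. The 3 Myelo-1 cells differed, with Eno1 at 310, 3622 and 5017 TPM and Aldoa at 666, 2070 and 2478 TPM. Tpi1 was at 0.30, 42.9 and 140 TPM. Cell 94 had the lowest Eno1 and Aldoa, with Gapdh at 1254 TPM and Gpi1 at 199 TPM. Each of these values was below every Gran-2 cell of that gate. In the other Myelo-1 cells most enzymes were within the range of Gran-2. In the 3 Myelo-4 cells Ldha was at 0.42, 1.22 and 4.02 TPM, Pgk1 at 0, 0.27 and 2.72 TPM, Tpi1 at 0, 0 and 0.39 TPM, Hk2 at 0, 0.11 and 0.34 TPM and Pfkl at 0 in each. Gapdh at 831, 986 and 1803 TPM, Gpi1 at 125, 295 and 333 TPM and Eno1 at 118, 1229 and 1549 TPM were still abundant there. Aldoa (1.37, 137 and 1389 TPM) and Pgam1 (0, 38.6 and 1191 TPM) differed greatly among these 3 cells. The median of genes detected was lowest in Myelo-4, at 2192 (2148 to 2319), although Myelo-2 cells reached down to 1993.

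Across the states with 3 or more cells Ldha had the order MP 10.61 ± 0.55, Mono 10.16 ± 0.76, GMP Gran-1 9.85 ± 2.31, cMoP 9.21 ± 1.43, Gran-2 9.06 ± 1.43, CD11b+ GMP-P Gran-1 8.28 ± 1.25, Myelo-1 7.52 ± 1.78, Multi-Lin 6.59 ± 3.98, Myelo-2 5.63 ± 3.33 and Myelo-4 1.33 ± 0.92. Of the neighbours in this order, only Myelo-2 and Myelo-4 lie further apart than the wider SD. Gapdh spanned far less, from 12.01 ± 0.48 in Mono to 10.15 ± 0.59 in Myelo-4. The 24 Mono cells had Ldha at 211 to 2733 TPM and Tpi1 at 5.07 to 952 TPM. In the 3 cMoP cells Tpi1 was at its highest mean, 9.62 ± 0.53, on 613, 658 and 1198 TPM.

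Between the gates as wholes most enzymes were lower in CD11b+ GMP-P, and the size and direction varied with the cells compared. The median difference was -1.32 over the enzymes and -0.74 over 7803 genes. At least 2-fold lower were 6 enzymes, against 39% of genes, and 0 were at least 2-fold higher, against 2.72%. Pfkl (-2.63), Ldha (-2.33) and Tpi1 (-2.09) led, and Gpi1 (-0.15) and Eno1 (-0.33) differed least. Ldha had a median of 1162 TPM (0 to 5678) in GMP and 335 TPM (0 to 1591) in CD11b+ GMP-P, and the cells of the gates overlapped for every enzyme. Under the 75% filter 5 of 9 enzymes were lower, against 56.7% of genes, and 0 higher, against 3.68%.

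Without the Myelo states, 2 enzymes were at least 2-fold apart, and the group's distance from all genes went from -0.58 to 0.02. In 22 pairs of cells matched on genes detected it was 0.19, and 1 enzyme was at least 2-fold apart. Tpi1 (0.74), Pgk1 (0.50) and Pgam1 (0.14) were then higher in CD11b+ GMP-P. With cells centred on widely detected genes, 2 enzymes were lower and 1 higher at 2-fold, against 9.18% and 28.1% of genes. The direction of the group's distance from all genes thus depended on the cells compared. The counts without the Myelo states and with matching stand without the share of all genes. They do not set the enzymes apart from other genes.

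The enzymes' share of all TPM was lowest in Multi-Lin, Myelo-2 and Myelo-4. Summed, the 10 enzymes made up 0.564% of a Multi-Lin cell's TPM by the median (0.315 to 1.41), 1.26% in MP (1.12 to 1.64) and 1.27% in Mono (0.760 to 1.69). Gran-1 cells were at 1.25% in GMP and 1.23% in CD11b+ GMP-P, Gran-2 at 1.06% (0.559 to 1.52), Myelo-2 at 0.515% (0.242 to 0.874) and Myelo-4 at 0.414% (0.123 to 0.4658). Myelo-1 had a median of 1.20% on 3 cells that included 1 at 0.3001%, and cMoP 0.802% on 3 cells.

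Granule transcripts of the secondary and late list moved the opposite way at the late end, whereas those of the primary list fell. In the CD11b+ GMP-P gate the secondary and late list had median sums of 163282 TPM in Gran-2, 539204 in Myelo-2 and 565031 in Myelo-4. The primary list had 71622, 465 and 15.4 TPM in the same states. The primary and the secondary and late granule lists combined took medians of 2.54% of TPM in Multi-Lin and 6.55% in MP. They took 24.1% in Gran-2, 53.95% in Myelo-2 and 56.5% in Myelo-4. Not all genes on these lists encode stored granule proteins, and the secondary and late list includes S100a8 and S100a9. Without these genes in the total, the enzymes' median share was 0.579% in Multi-Lin, 1.35% in MP, 1.34% in Mono and 1.38% in GMP Gran-1. In the CD11b+ GMP-P gate it was 1.45% in Gran-1, 1.405% in Gran-2, 1.06% in Myelo-2 and 0.925% in Myelo-4. Myelo-1 stood at 1.77% on 3 cells (0.489 to 1.87). By the median, Gran-1 of each gate, Gran-2 and Myelo-1 then stood above MP and Mono, with overlapping cells. The Myelo-2 median was thus 0.515% with and 1.06% without granule genes in the total. It was below the Gran-2 median either way. Without these genes Myelo-2 cells ran from 0.5591 to 1.898% and Gran-2 cells from 0.7504 to 1.873%. The highest Myelo-2 cell thus exceeded every Gran-2 cell, and the medians do not set the cells of these states apart.

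**Figure D3:**
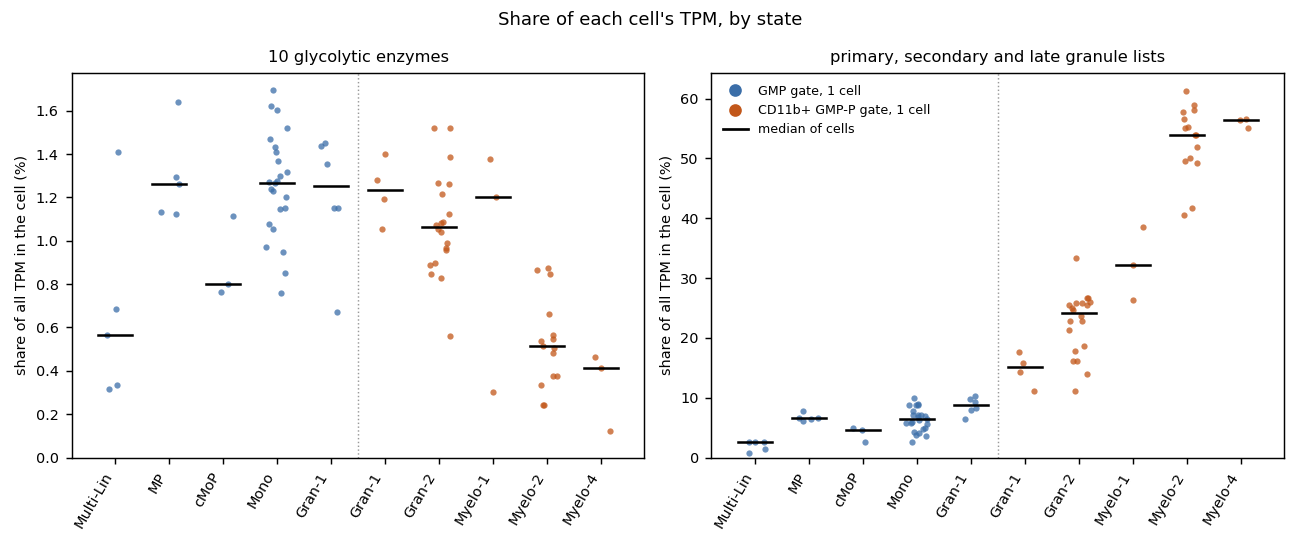
The y axes give the percentage of a cell's TPM taken by the 10 enzymes (left) and by the granule lists (right), for each cell as a point by state, with medians as black bars. The enzymes' share is at 0.515% in Myelo-2 while the granule share is at 53.95%.

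The make-up of the enzymes' share changed as well. Gapdh took 31.8% of the 10 enzymes' TPM in MP, 30.2% in Gran-2 and 34.2% in Myelo-2 (medians of cells). Ldha took 11.4% in MP, 5.55% in Gran-2, 1.59% in Myelo-2 and 0.0863% in Myelo-4. Eno1 took 13.1%, 23.5% and 8.51% in MP, Gran-2 and Myelo-2, and Gpi1 8.13%, 13.1% and 18.9%. In the 3 Myelo-4 cells Eno1 took 26.4% and Gpi1 8.03%. By the median, the upstream isomerase thus held a wider part of the enzymes' TPM in Myelo-2 but not in Myelo-4. Lactate dehydrogenase held a smaller part in both. The cells overlapped widely, with Gpi1 at 1.73 to 36.2% in Myelo-2 and 1.60 to 26.4% in Gran-2. The part of Eno1 leaves out its copy Eno1b, which was above 10 TPM in 7 of 15 Myelo-2 cells.

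Isozymes of some steps stayed abundant where the listed enzyme was scarce, and those of others did not. Among hexokinases, Hk3 averaged 7.21 ± 2.54 in Gran-2 against 4.47 ± 2.94 for Hk2, and in Myelo-4 Hk3 was at 54.02, 68.4 and 433 TPM where Hk2 was at or under 0.34 TPM. Hk1, the broadly expressed form, averaged 1.98 ± 2.62 in Gran-2 and 0.36 ± 0.88 in Myelo-2. Adpgk, which encodes a glucokinase that uses ADP, went against the members: it averaged 0.40 ± 0.66 in MP, 3.73 ± 3.22 in Gran-2, 6.79 ± 2.33 in Myelo-2 and 8.10 ± 1.73 in Myelo-4. The Myelo-2 minus Gran-2 difference of Adpgk was 3.06, with all 15 Myelo-2 cells above 0 (median 123 TPM), and 99.7% of the genes compared had a lower difference.

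At the phosphofructokinase step no gene was abundant late. The platelet type Pfkp averaged 4.79 ± 3.06 in MP, 2.22 ± 3.06 in Gran-2 and 0.59 ± 2.11 in Myelo-2. The muscle type Pfkm was detected in 3 of 47 CD11b+ GMP-P cells. In Myelo-4 all 3 of these genes were at 0 in all 3 cells.

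Pyruvate kinase, encoded by Pkm, was above 0 in all 92 cells and had a narrow range of state means. It averaged 8.84 ± 2.82 in Multi-Lin, 10.22 ± 0.66 in MP, 10.09 ± 1.27 in Gran-2, 8.75 ± 1.32 in Myelo-2 and 9.41 ± 1.38 in Myelo-4. Ldhb averaged 6.55 ± 2.09 in MP and 1.08 ± 2.65 in Myelo-2 and was at 0 in Myelo-4, the same end at which Ldha was at 1.33 ± 0.92. Among enolases Eno3 was above 10 TPM in 3 of 92 cells, and the aldolase gene Aldoc was at 0 in all 92 cells.

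**Figure D4:**
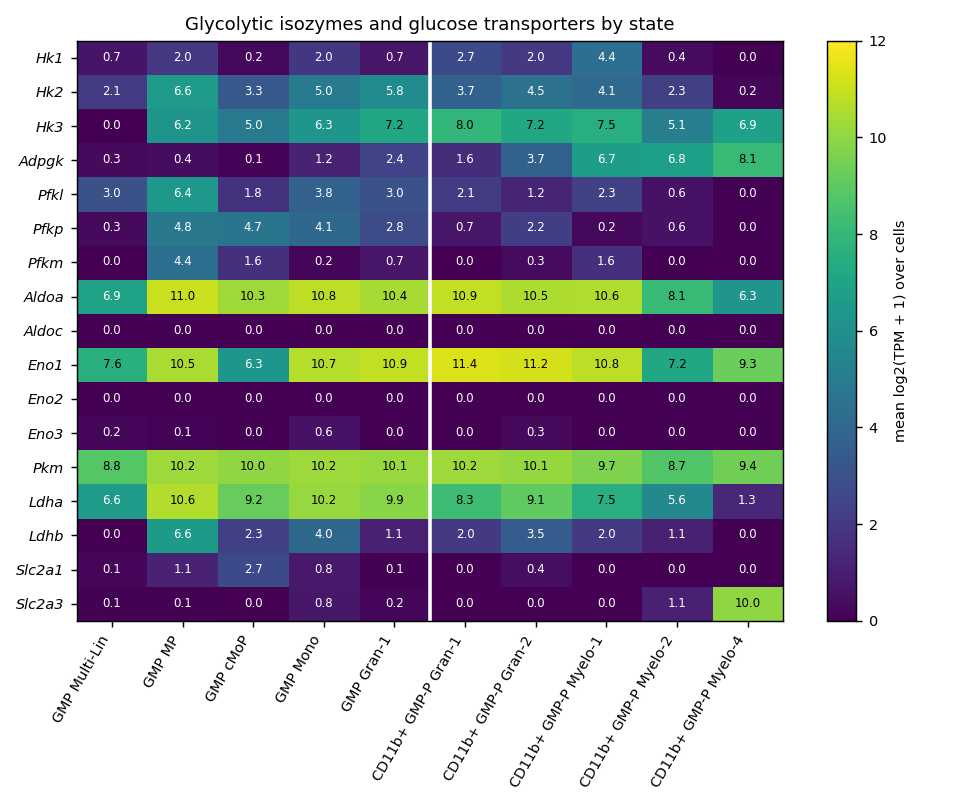
The colour and the printed number give the mean log2(TPM + 1) over cells of each gene (rows) in each state (columns), with the white line dividing the gates. Hk3, Adpgk and Pkm remain visible in the last column, in which Slc2a3 is at 10.03 and Ldha at 1.33.

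Glucose carriers were scarce except in 1 state. Slc2a1, the broadly expressed glucose transporter, was above 10 TPM in 4 GMP cells and 1 CD11b+ GMP-P cell. Slc2a3, a transporter of high affinity, was at 531, 973 and 2193 TPM in the 3 Myelo-4 cells and at 0 to 81.6 TPM in Myelo-2. Slc16a3, a lactate exporter, was above 10 TPM in 8 of 92 cells, whereas Bsg, the chaperone of such exporters, averaged 6.23 ± 2.86 in Gran-2 and 2.96 ± 3.08 in Myelo-2.

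Of the regulators, Myc, a transcription factor known to drive glycolytic genes, averaged 7.32 ± 3.94 in Multi-Lin, 6.05 ± 1.34 in MP, 3.23 ± 3.27 in Gran-2 and 0.06 ± 0.12 in Myelo-2. Hif1a, the hypoxia-inducible subunit, had a mean of 1.49 ± 2.01 over the GMP cells and of 1.22 ± 1.95 over the CD11b+ GMP-P cells, and among the states it was highest in GMP Gran-1, at 3.53 ± 2.61. Pfkfb4, which makes the activator of phosphofructokinase, was 1.34 higher in CD11b+ GMP-P and 2.40 lower in Myelo-2 than in Gran-2.

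Neighbouring pathways were described by the same counts. In Myelo-2 minus Gran-2 the tricarboxylic acid cycle had 14 of 16 genes at least 2-fold lower (median -2.63), against 51.2% of all genes, led by Idh3a (-5.69), a subunit of isocitrate dehydrogenase, and Sdhd (-5.22), an anchor of succinate dehydrogenase. Pyruvate dehydrogenase and pyruvate carriers had 9 of 10 lower (median -2.17, against -1.04 over all genes), led by the carrier Mpc1 (-5.02). Cytosolic malate dehydrogenase, Mdh1, which also restores NAD+, differed by -6.08 (1.90 ± 2.30 against 7.97 ± 1.85). The enzymes' own median of -2.26 lay between these lists.

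Pentose phosphate and glycogen genes stood nearer to zero change between the gates. The pentose phosphate list had a median of -0.10 over 10 genes, with 1 at least 2-fold higher and 2 lower, against 2.72% and 39% of all genes, and its dehydrogenases, which make NADPH, were higher in CD11b+ GMP-P: G6pdx by 0.97 and Pgd by 1.11. In Myelo-2 minus Gran-2 the same list had 8 of 10 lower (median -1.81), against 51.2% of all genes, led by Pgls (-3.40), the lactonase. Of 10 glycogen genes 3 were higher and 3 lower between the gates, and Pygl, glycogen phosphorylase, averaged 5.54 ± 2.74 in Gran-2 and 5.70 ± 2.08 in Myelo-2. In MP minus Multi-Lin 13 of 16 tricarboxylic acid cycle genes were at least 2-fold higher (median 3.37), against 50.6% of all genes, led by Fh1 (6.59), fumarase, so genes of another pathway also differed widely at that step.

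**Figure D5:**
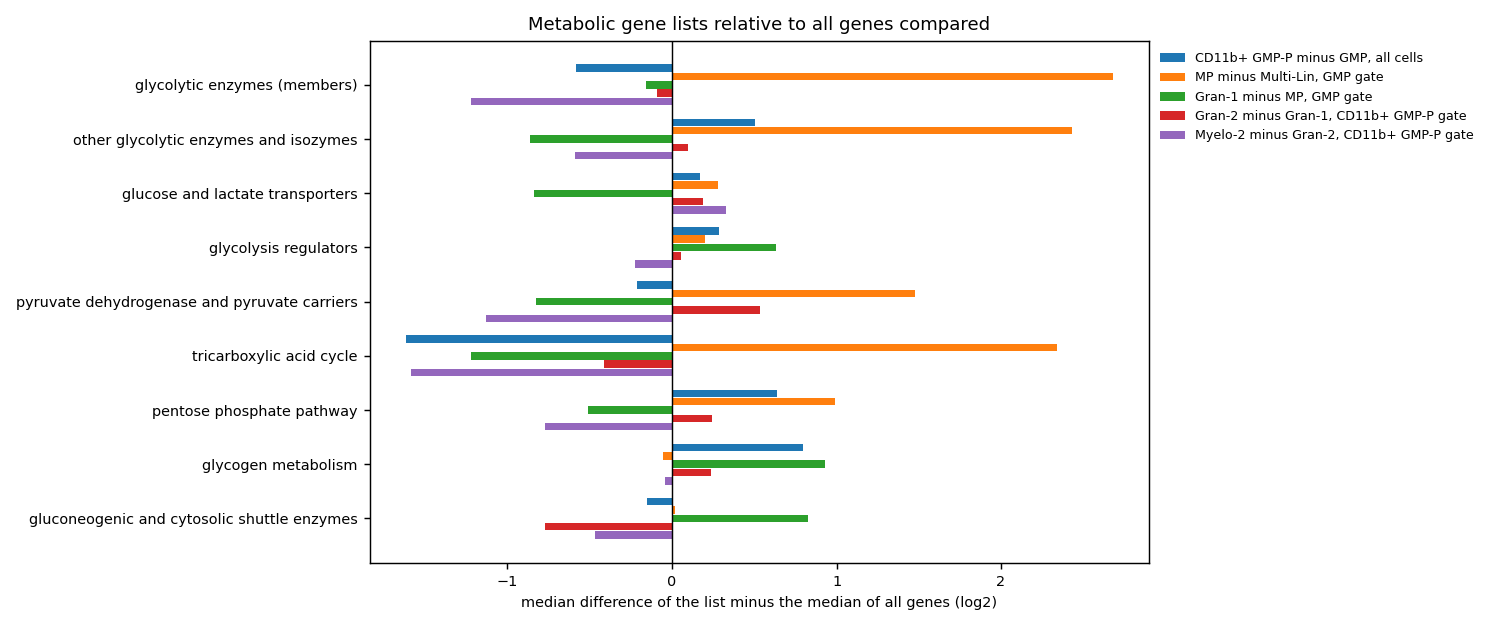
Bars give, for each metabolic list and each of 5 comparisons, the median difference of the list minus the median difference of all genes compared (log2). The 10 enzymes stand at 2.68 for MP minus Multi-Lin and at -1.22 for Myelo-2 minus Gran-2.

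Across cells the enzymes followed each other loosely. The median Spearman coefficient over the 45 pairs was 0.30 in 92 cells, 0.06 in the 24 Mono cells, 0.19 in the 20 Gran-2 cells and 0.02 in the 15 Myelo-2 cells. The mean of the 10 enzymes had a Spearman coefficient of 0.73 with genes detected over 92 cells, and 0.28 within Myelo-2. These cells share gate, scaling and detection, so the coefficients are descriptions only.

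Of 3979 genes detected in at least 50% of cells, those whose level followed the mean of the enzymes most closely were Set (0.71), Pdia6 (0.70), Phgdh (0.69), Sdf2l1 (0.69) and Idh2 (0.68), by Spearman coefficient over 92 cells. Within the GMP gate these coefficients were 0.41, 0.56, 0.51, 0.59 and 0.53. Pkm, the step that the list leaves out, was at 0.46 and ranked 558.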

How the data were processed

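Single bone marrow cells were captured on a Fluidigm C1 instrument, and their libraries were read as 150 bp paired ends, per the labels' protocols. The values are log2(TPM + 1) per gene and cell as the authors deposited them, made with Bowtie2 and RSEM on mm9, per the submitters' processing notes; no versions are stated there. State names are those of the authors' deposited annotation, whose method and time order are not given there. Values were turned back to TPM, which had the same sum in every cell once Ly6g was left out. TPM keeps no read depth, so genes detected stood in for it. No cell was removed, no doublet caller was run, and 0 pairs of cells were identical.

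Each of 5 comparisons used the difference of mean log2(TPM + 1) over genes above 0 in 25% or more of either group's cells, and 2-fold as the limit. Gates have no replicates, so no test was run. The difference step was tested on simulated data. The members and lists were chosen with earlier results of these data known. Named beside all 10 members were up to 4 genes per metabolic list with the largest distance from the median of all genes, the detected isozymes, Slc2a1, Slc2a3, Slc16a3, Hif1a, Myc and the 5 genes of highest likeness; not all of these are printed. Eno1b, found with BLAST+ 2.17.0, was named after its values were seen. Python 3.11.15, pandas 2.3.3, scipy 1.17.1 and matplotlib 3.10.9 were used. Alternatives changed the pseudocount, the filter, the average, the scaling and the cells; the Eno1 and Eno1b sum and the 75% filter were added after seeing the data.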

Additional observations from a re-analysis of the deposited data

Results flagged for a closer look

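There were 40 sets of 4 to 6 cells, 1 enzyme in 1 state each. Of these, 7 held a cell far from the others by the 95% limit of Dixon's criterion on the log2(TPM + 1) scale. That limit gives 1 in 20 only for normally distributed values, and several sets hold cells at 0. The number flagged was therefore not weighed against chance, and the criterion only marked cells for a closer look. In Multi-Lin, cell 14 had 265.94 TPM of Hk2 where the others had 0 to 1.66, and cell 26 had 7931.92 TPM of Gapdh where the others had 1459.79 to 2294.09. In MP, cell 30 had 25.52 TPM of Hk2 (others 100.9 to 157.23), cell 24 had 10.1 TPM of Pfkl (others 105.74 to 189.24) and cell 45 had 3034.23 TPM of Ldha (others 1238.4 to 1491.67). In GMP Gran-1, cell 13 had 2124.47 TPM of Gapdh (others 3291.84 to 4218.37). In CD11b+ GMP-P Gran-1, cell 95 had 168.2 TPM of Pfkl (others 0 to 0.95). No cell appears in this list more than once.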

How the results depend on the processing

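No paired analysis was possible because the gates share no replicate numbers and no result comes from a test. For CD11b+ GMP-P minus GMP, the count of enzymes at least 2-fold apart was 2 with the logarithm of the mean TPM, 3 with cells centred on widely detected genes, 1 with cells matched on genes detected and 2 without the Myelo states, and the group's distance from all genes turned to 0.19 with matching and 0.024 without the Myelo states. Of the enzymes past 2-fold, Hk2 turned to 0.25 with the logarithm of the mean TPM, and Tpi1 to 0.74, Pgk1 to 0.50 and Pgam1 to 0.14 with matching. Of those within 2-fold, Eno1 turned to as high as 1.56 with matching, and with centring Gpi1 to 1.13, Gapdh to 0.61 and Aldoa to 0.45.

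For MP minus Multi-Lin the distance was 0.78 and Pgk1 -0.079 with the logarithm of the mean TPM, and with centring Gpi1 was -0.28 and Gapdh -0.43. Leaving out 1 cell gave distances of 2.25 to 3.48 and counts of 7 to 9. For Gran-1 minus MP the distance was 0.040 with a pseudocount of 0.1, 0.12 with the logarithm of the mean TPM and 0.060 among genes detected in at least 75% of cells. The count there was 4 with 5 matched pairs and 1 under the 75% filter, and leaving out 1 cell gave distances of -0.20 to -0.02 and counts of 2 to 3, the higher without MP cell 30. For Gran-2 minus Gran-1 the distance was 0.21 with a pseudocount of 0.1, 0.015 with granule genes left out, 0.030 with 4 matched pairs and 0.11 under the 75% filter. The count was 4 with the lower pseudocount, 2 with the median over cells, 2 with centring and 0 with matching, and leaving out 1 cell gave distances of -0.17 to 0.11 and counts of 1 to 5.

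For Myelo-2 minus Gran-2 the distance was 0.21 with the logarithm of the mean TPM and -2.35 with the median over cells. Pgk1 was 0.48 with the median over cells, and with centring Hk2 was 0.42, Aldoa 0.23 and Pgk1 1.07. With granule genes left out of the total, the enzymes' share was 1.45% in CD11b+ GMP-P Gran-1, 1.405% in Gran-2, 1.06% in Myelo-2 and 0.925% in Myelo-4. Of 725 values of single genes under alternatives, 59 changed sign, of which 9 belonged to a difference past 2-fold. Apart from those 9, 16 values moved by more than the spread of cells. Matching was not run for MP minus Multi-Lin, with 1 pair, and Myelo-2 minus Gran-2, with 2 pairs. The cause of these shifts was not tested. Counts in this section stand without the share of all genes and do not set the enzymes apart from other genes. The unknown depth of each cell limits what a 0 means, and states of 3 to 6 cells limit every value drawn from them.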

Other observations

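The 1 CD11b+ GMP-P cell named Multi-Lin, cell 56, entered no comparison of states. It had 3828 genes detected, and its 10 enzymes took 0.632% of TPM. Hk2 was at 670 TPM and Ldha at 1075 TPM, both above all 5 Multi-Lin cells of the GMP gate, whereas Tpi1 and Pfkl were at 0. Hk3 was at 362 TPM in it and at 0 in those 5 cells.

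Among all 3979 genes ranked by likeness to the mean of the enzymes, Actb, the cytoskeletal actin often used like Gapdh as a reference gene, stood last, with a Spearman coefficient of -0.65 over 92 cells, -0.29 within GMP and -0.62 within CD11b+ GMP-P. It was singled out after its values were seen. The cells share gate and scaling, and the coefficient is a description only.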
